A study of Homo sapiens with 3 samples.

Results

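The genes described here encode the enzymes that make fatty acids from citrate, lengthen and desaturate them, activate them and build them into glycerolipids, together with 3 regulators of that program. They were taken by symbol from the platform's annotation of the array, older names included, and 37 genes were listed out of 20046 that the annotation names. RNA came from PLC-PRF-5, an established human liver hepatoma line, after 24 h with the solvent DMSO, with the kinase inhibitor sorafenib or with the sorafenib probe, a derivative of the drug with an added light-activated crosslinking group and a terminal alkyne. The labels give a dose of 10 μM for either compound, whereas the treatment protocol of the same samples gives 50 μM, so the compounds were matched in dose and time but the dose itself is uncertain. Each group was 1 Illumina array of biotinylated cRNA, and all groups were compared within the same line, seeded in the same way. No replicate array was analysed here, so no test between groups was possible and every difference is described by its size.

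Fatty acid synthesis starts from citrate that leaves the mitochondrion and is split into acetyl-CoA. Acetyl-CoA is carboxylated to malonyl-CoA, and fatty acid synthase joins these units into palmitate, which elongases lengthen and desaturases unsaturate before acyltransferases attach the chains to glycerol. In liver cells the transcription factors SREBP (from SREBF1) and ChREBP (from MLXIPL) are known to drive many of these genes in response to insulin, sterols and carbohydrate, and liver tumours often keep the program active.

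Of the 37 genes, 34 had at least 1 array probe named after them, 59 array probes in all. MCAT, AGPAT3 and ACSL3 were not analysed here. A probe was taken as above background where its deposited detection p-value was under 0.01, and 40 of the 59 probes, covering 29 genes, were above background on at least 1 array. ELOVL7, ACSL5, DGAT2, PNPLA3 and THRSP were not well above background on any array. Of the 29 genes, 24 were above background on all 3 arrays, and the remaining 5 (MLYCD, FADS2, FADS3, GPAT4 and MLXIPL) on only 1 or 2. Where a gene had several such probes the brightest represented it. Intensities are background corrected, quantile normalized values in arbitrary units, and levels are compared only between arrays for the same probe. In such cultures fewer cells expressing a gene and less of its RNA per cell cannot be told apart.

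Mean intensity before normalization ran from 159 to 183 on the 3 arrays, and 32.3% to 32.8% of the 47323 probes were above background. In all 10396 genes had a probe above background on at least 1 array, and these are the genes tested, by size only. With no replicates, the nearest guide to error is the spread over all genes, which were put into 3 equal groups by mean intensity. Between the sorafenib probe and sorafenib arrays the middle 95% of log2 differences ran from -0.71 to 0.72 in the dimmest group, from -0.40 to 0.40 in the middle group and from -0.27 to 0.27 in the brightest. Against DMSO these ranges were wider, from -0.44 to 0.47 with sorafenib and from -0.44 to 0.45 with the sorafenib probe in the brightest group. Of 14 hepatocyte and hepatoma markers 4 were above background on at least 1 array (ALB, APOH, FGA and FOXA2), and AFP, APOA1, APOB, TTR and SERPINA1 were not, while all 4 epithelial markers were. The summed intensity of the hepatocyte markers was 2135 under DMSO, 1881 under sorafenib and 1813 under the sorafenib probe, most of it from FOXA2, and APOH was above background with DMSO only. No endothelial marker of 3 was above background, 2 of 5 leukocyte markers were, and LEP was the only one of 4 adipocyte markers. The summed intensity of the 2 measured markers of fibroblast and stellate cells was 299 under DMSO, 201 under sorafenib and 227 under the sorafenib probe. Most of it came from ACTA2, with 274, 177 and 191. COL1A1 had 24.9, 24 and 36.5 and was above background only with the sorafenib probe. The part of any such cells in the results was not tested.

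Most measured genes of the group had lower intensities with either compound than with DMSO. With sorafenib 24 of the 29 lay below 0 on the log2 scale and 5 above, against 50.5% and 49.4% of all genes tested. With the sorafenib probe 22 lay below 0 and 7 above, against 50% and 49.9%. These counts use unrounded differences, and 1 of the 22, SREBF1, lay within 0.005 of 0, which leaves 21 beyond that distance. Their median log2 difference from DMSO was -0.20 with sorafenib and -0.23 with the sorafenib probe, where the median of all genes tested was 0.00. Among the 24 genes above background on all 3 arrays, 20 and 19 lay below 0, with medians of -0.16 and -0.23. Of all genes with a probe above background on all 3 arrays 51.1% and 50.7% did, with medians of -0.01 and 0.00. Both comparisons use the same DMSO array.
Most of these differences were small. At least 1.5-fold lower than with DMSO were 2 of the 29 genes with sorafenib, SCD and FADS1, where 1.93% of all genes were, and 3 with the sorafenib probe, SCD, FADS1 and ELOVL6, where 1.98% were. None of the 29 was at least 1.5-fold higher with sorafenib or with the sorafenib probe (2.15% and 2.32% of all genes), and none reached 2-fold in either direction. Of all genes 0.115% were 2-fold lower and 0.164% higher with sorafenib, and 0.164% lower and 0.25% higher with the sorafenib probe. At a smaller size of 1.3-fold, 8 members were lower with sorafenib (SCD, FADS1, FADS2, ELOVL5, ELOVL6, ACLY, MLYCD and ME1) and 0 higher, against 7.72% and 7.82% of all genes. With the sorafenib probe 6 were lower at that size (SCD, FADS1, FADS2, ELOVL5, ELOVL6 and MLYCD) and 1, TECR, higher, against 7.79% and 7.75%. FADS2 passed the detection limit only through the DMSO array, where it was high, so its direction was fixed by that limit. Of the 24 members detected on every array, 6 were 1.3-fold lower with sorafenib, against 7.87% of 8750 such genes, and 4 with the sorafenib probe, against 8.01%. In the brightest group of genes, where the spread is narrowest, 9 of 10 members lay below 0 with each compound, while 50.5% and 49.6% of the 3466 genes of that group did. In the middle group 8 of 10 did with each compound (50.7% and 50.8% of its genes), with medians of -0.13 and -0.04. In the dimmest group 7 of 9 did with sorafenib and 5 of 9 with the sorafenib probe (50.2% and 49.7%).

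**Figure D1:**
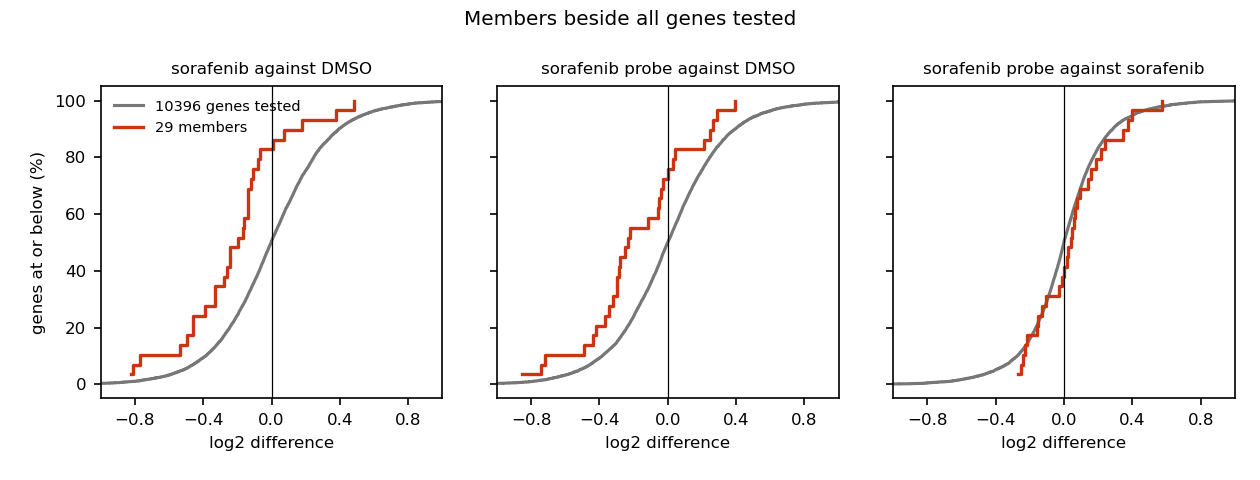
Cumulative share of genes (percent, vertical axis) at or below each log2 difference (horizontal axis) for sorafenib against DMSO, the sorafenib probe against DMSO and the sorafenib probe against sorafenib, for 10396 genes tested (grey) and 29 members (red). The members lie to the left of all genes against DMSO (medians -0.20 and -0.23) and close to them between the compounds (median 0.04).

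The lowest values relative to DMSO belonged to SCD and FADS1, a pair of desaturase genes. The 250 bases before their RefSeq start sites are shown because these were the only members at least 1.5-fold from DMSO with both compounds. The SCD stretch is chr10:100346983-100347232 on the plus strand and the FADS1 stretch chr11:61817004-61817253 on the minus strand, in build GRCh38.p14, and capitals mark CCAAT boxes and GC boxes (GGGCGG, here on the opposite strand as CCGCCC).
SCD: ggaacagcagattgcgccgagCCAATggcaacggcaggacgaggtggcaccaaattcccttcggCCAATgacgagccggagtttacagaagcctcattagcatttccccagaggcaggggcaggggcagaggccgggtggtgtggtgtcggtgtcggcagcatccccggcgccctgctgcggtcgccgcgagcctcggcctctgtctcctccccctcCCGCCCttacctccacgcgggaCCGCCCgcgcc
FADS1: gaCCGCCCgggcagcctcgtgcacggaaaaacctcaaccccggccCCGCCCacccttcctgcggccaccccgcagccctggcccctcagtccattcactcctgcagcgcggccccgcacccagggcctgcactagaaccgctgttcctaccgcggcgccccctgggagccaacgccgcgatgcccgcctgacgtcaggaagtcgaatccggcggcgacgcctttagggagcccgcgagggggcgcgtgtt
The SCD stretch holds CCAAT, the sequence that the factor NF-Y binds, at 229 and at 186 bases before the start, and the FADS1 stretch holds none. Both hold 2 GC boxes. Over the windows of 31 members in the RefSeq table, searched on both strands, CCAAT occurred in 1 or more windows of 18 members (32% of 35116 windows of all genes), the GC box in those of 27 (42.6%) and the E-box CACGTG in those of ELOVL5 and LPIN2 (6.34%). The sterol regulatory element, searched as TCACNCCAC, occurred for ACSL1 only (0.883% of all windows). Other forms of the element were not searched, nor were bases beyond the 250. The lack of a match therefore does not show that SCD, FADS1 or another member lacks such an element. Several members have more than 1 window, so these counts are not shares of the same kind, and a match is a description of the letters and not of binding.

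SCD places the first double bond in stearate and palmitate, and its normalized intensity was 1564 under DMSO, 883 under sorafenib and 864 under the sorafenib probe. DMSO was the high array, and the arrays of the compounds differed by a log2 difference of only -0.03. SCD was 1.77-fold lower with sorafenib and 1.81-fold lower with the sorafenib probe (log2 differences of -0.82 and -0.86), and of the 10396 genes 97 and 70 lay lower still. In the background-subtracted intensities as deposited, before any normalization, SCD stood at 1668, 816 and 829.
FADS1, which desaturates the precursors of arachidonic and eicosapentaenoic acid, had 882 under DMSO, 503 under sorafenib and 527 under the sorafenib probe. It was 1.75-fold and 1.67-fold lower (log2 differences of -0.81 and -0.74), and 105 and 145 genes lay lower. Both genes lay outside the middle 95% of genes of like intensity with each compound. Of the 29 members 3 lay outside that range with each compound, the third being ME1 with sorafenib and ELOVL6 with the sorafenib probe.
FADS2, the desaturase of the preceding step, was above background with DMSO only, at 44.8, and measured 31.0 and 33.1 on the other arrays. This gives bounds only. FADS2 was at least 1.31-fold lower with sorafenib and at least 1.32-fold lower with the sorafenib probe, where the dim array counts at whichever is higher, its measured value or the faintest signal above background on that array (34.8 under DMSO, 34.2 under sorafenib and 33.9 under the sorafenib probe). FADS3, a relative that acts on sphingoid bases, was above background with the sorafenib probe only, at 37.7, and was at least 1.08-fold higher there than with DMSO. That direction was likewise fixed by the detection limit. SCD5, the other human stearoyl-CoA desaturase, stood apart from SCD, with 85.8, 79.4 and 82.8 and log2 differences of -0.11 and -0.05.

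**Figure D2:**
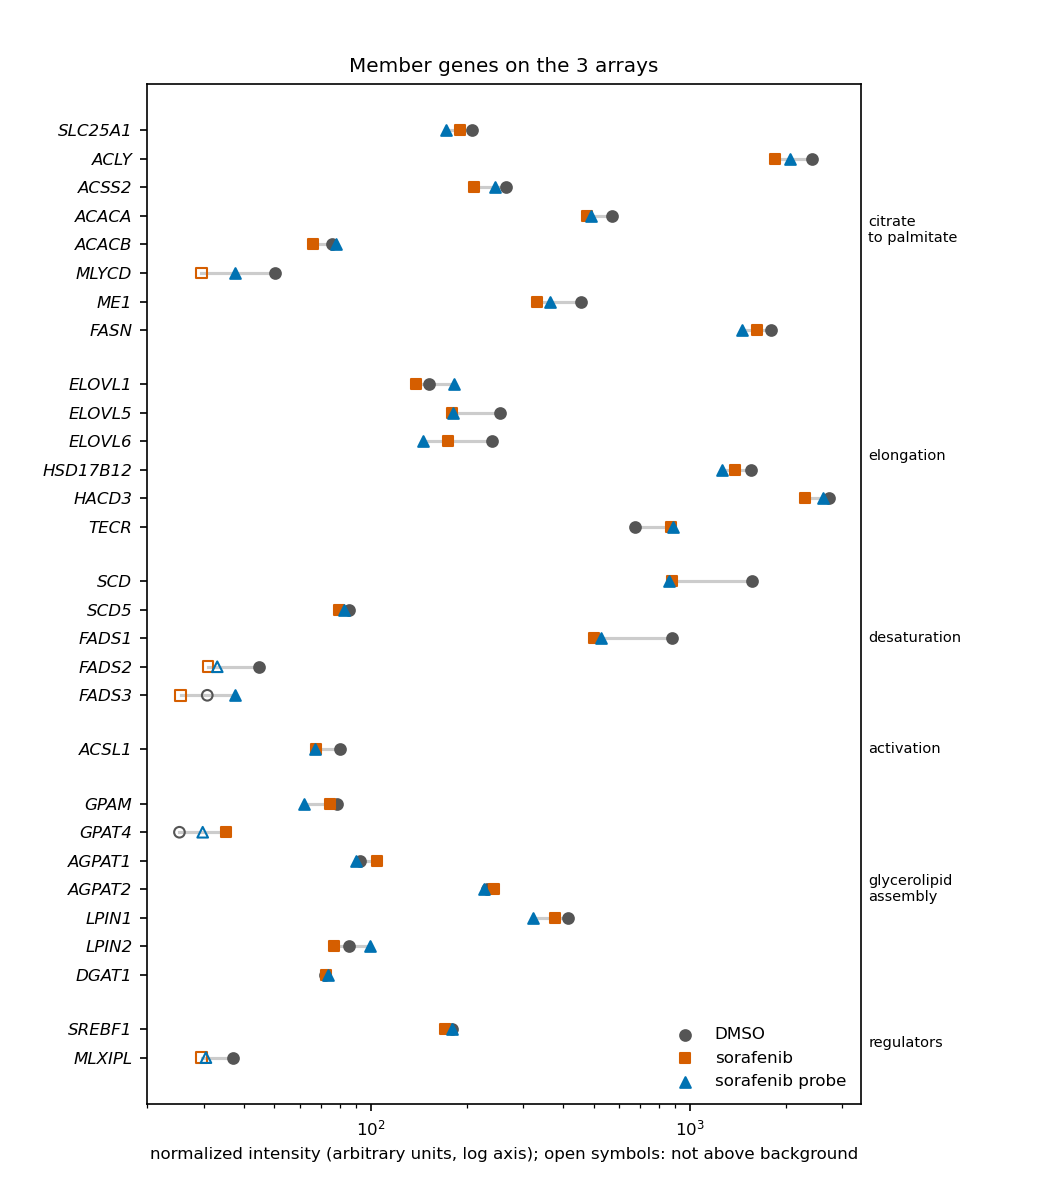
Normalized intensity (horizontal log axis, arbitrary units) of the 29 measured members on the DMSO (circles), sorafenib (squares) and sorafenib probe (triangles) arrays, 1 array each, grouped by step, with open symbols where the array probe was not above background. SCD and FADS1 show the widest gaps between DMSO and both compounds among the bright genes, and levels of different genes are not comparable.

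From citrate to palmitate all 8 measured genes lay below 0 with sorafenib and 7 of 8 did with the sorafenib probe. Of all genes tested 50.5% and 50% did. The medians of the 8 were -0.30 and -0.26, and none was 1.5-fold lower by measurement or bound. ACLY, which splits exported citrate into acetyl-CoA, had 2422 under DMSO, 1845 under sorafenib and 2058 under the sorafenib probe (log2 differences of -0.39 and -0.23). Its other array probe gave -0.31 and -0.42, so the order of the compounds depended on the probe. SLC25A1, the carrier that brings citrate out of mitochondria, had 208, 191 and 172, or -0.12 and -0.28. ACSS2, which makes acetyl-CoA from acetate, had 266, 211 and 246, and its values of -0.33 and -0.11 were -0.17 and -0.07 by its other probe.
Of the acetyl-CoA carboxylases, ACACA makes the malonyl-CoA used for synthesis and had 573 under DMSO, 478 under sorafenib and 492 under the sorafenib probe. Its log2 differences were -0.26 and -0.22, and -0.11 and -0.07 by its other probe. ACACB, whose malonyl-CoA restrains fatty acid entry into mitochondria, had 75.6, 65.9 and 77.8, or -0.20 and 0.04. MLYCD, which returns malonyl-CoA to acetyl-CoA, had 50.2 under DMSO, 29.5 under sorafenib and 37.5 under the sorafenib probe, and was not above background with sorafenib. It was at least 1.47-fold lower with sorafenib and 1.34-fold lower with the sorafenib probe.
FASN, the synthase itself, had 1795 under DMSO, 1630 under sorafenib and 1458 under the sorafenib probe. Its log2 differences of -0.14 and -0.30 were small beside those of SCD, and both lay within the middle 95% of genes of like intensity. ME1, a cytosolic source of NADPH for the synthase, had 458, 333 and 366. With sorafenib ME1 was 1.37-fold lower (log2 difference -0.46), just outside that range, which ended at -0.44. With the sorafenib probe ME1 was 1.25-fold lower (-0.32), inside the range.

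Among the elongation genes 5 of 6 lay below 0 with sorafenib and 4 of 6 did with the sorafenib probe. That compares with 50.5% and 50% of all genes tested, and the medians of the 6 were -0.21 and -0.18. ELOVL6, which extends palmitate to stearate, had 240 under DMSO, 175 under sorafenib and 146 under the sorafenib probe. It was 1.38-fold lower with sorafenib and 1.64-fold lower with the sorafenib probe (log2 differences of -0.46 and -0.72). Its other probe had 101, 70.8 and 86.4, or -0.52 and -0.23, and with the mean of both probes ELOVL6 was no longer 1.5-fold lower with the sorafenib probe.
ELOVL5, which extends polyunsaturated chains, had 254 with DMSO and 180 and 181 with the compounds, log2 differences of -0.50 and -0.49. The arrays of the compounds were alike for ELOVL5 and both lay below DMSO, inside the middle 95% of genes of like intensity. ELOVL1, which extends saturated chains to very long ones, had 153 under DMSO, 139 under sorafenib and 183 under the sorafenib probe, below DMSO with 1 compound and above it with the other (-0.14 and 0.26).
The remaining enzymes of the elongation cycle lay on both sides of 0. HSD17B12, the ketoacyl reductase, had -0.17 and -0.30 by its brightest probe and -0.28 and -0.48 by the other. HACD3, a dehydratase of the cycle, had 2723, 2300 and 2615 (-0.24 and -0.06). Its next brightest probe had 1182, 1172 and 1119, or -0.01 and -0.08, so the value with sorafenib rested on the brightest probe, and the dimmest gave -0.11 and -0.22. TECR, the enoyl reductase that completes the cycle, had 673 under DMSO, 873 under sorafenib and 884 under the sorafenib probe, or log2 differences of 0.37 and 0.39, the largest above 0 of any member above background on all 3 arrays.

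**Figure D3:**
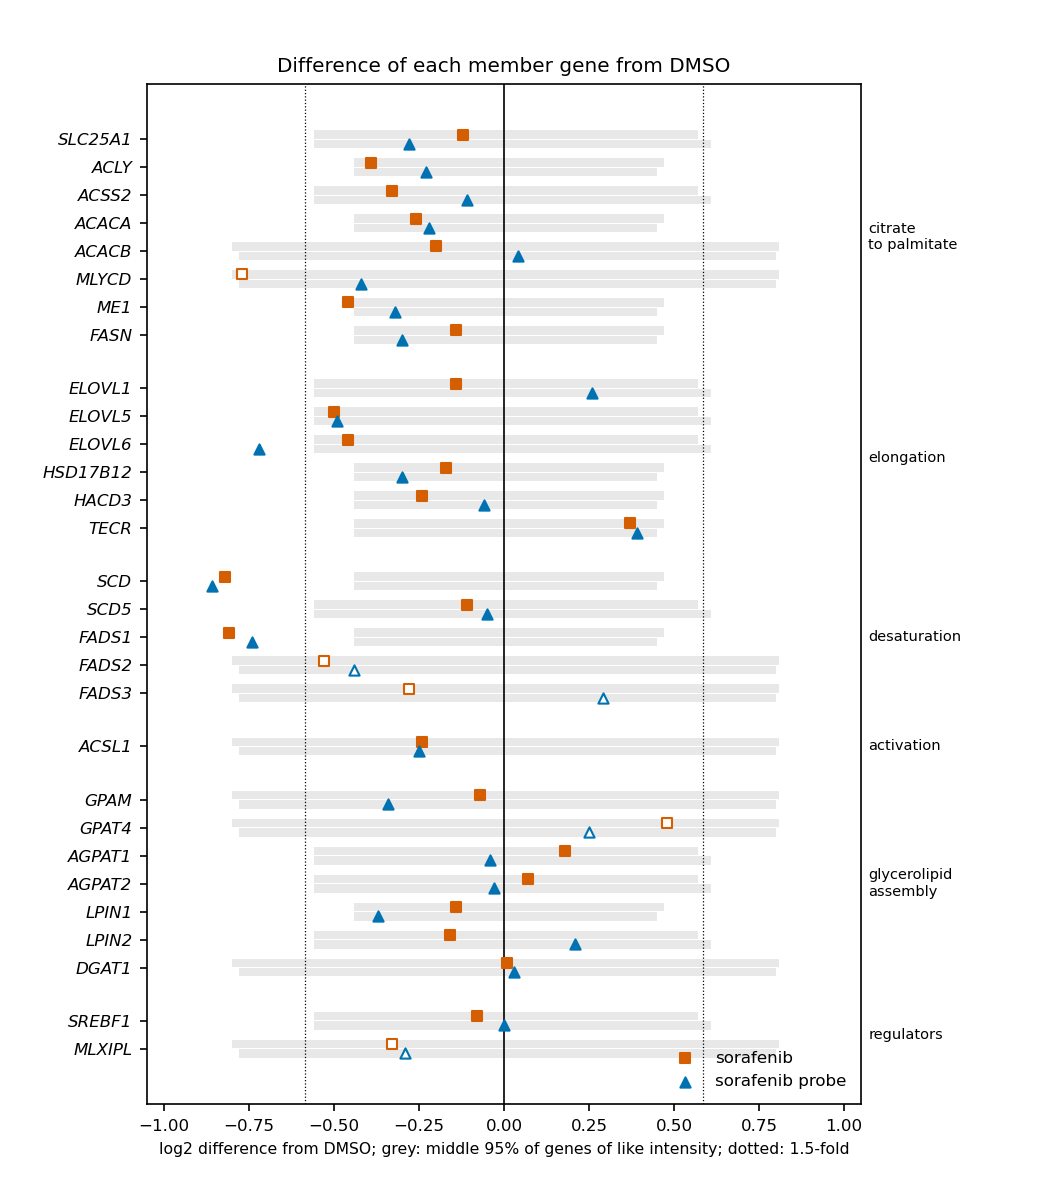
Log2 difference from DMSO (horizontal axis) of each measured member with sorafenib (squares) and the sorafenib probe (triangles), 1 array each; grey bars give the middle 95% of all genes of like intensity, dotted lines 1.5-fold, and open symbols comparisons with an array not above background. SCD and FADS1 lie left of the bars with both compounds, ELOVL6 with the sorafenib probe and ME1 with sorafenib, while TECR lies to the right of 0.

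Genes that attach fatty acids to glycerol lay on both sides of 0 in these arrays. Of 7 measured, 3 lay below 0 with sorafenib and 4 did with the sorafenib probe, near the 50.5% and 50% of all genes tested. The medians of the 7 were 0.01 and -0.03, and none was 1.5-fold from DMSO. The difference between this step and the others was not tested. GPAM, the mitochondrial acyltransferase of the first acylation, had 78.4 under DMSO, 74.6 under sorafenib and 61.8 under the sorafenib probe (-0.07 and -0.34, and -0.35 and -0.25 by its other probe). GPAT4, its counterpart in the endoplasmic reticulum, was above background with sorafenib only, at 35.2, and its bound against DMSO was close to no difference.
AGPAT1 and AGPAT2 add the next chain and give phosphatidic acid. AGPAT1 had 92.6, 105 and 90.2, or 0.18 and -0.04. AGPAT2 had 231, 243 and 226, or 0.07 and -0.03, and its 2 other probes ranged from -0.04 to 0.23, on both sides of 0. The lipins remove the phosphate. LPIN1 had 417 under DMSO, 379 under sorafenib and 324 under the sorafenib probe (-0.14 and -0.37), and LPIN2 had 85.9, 76.9 and 99.7 (-0.16 and 0.21). DGAT1, which completes triglyceride, had 72.4 under sorafenib and 73.5 under the sorafenib probe, and its log2 differences from DMSO were only 0.01 and 0.03. Before these steps, ACSL1, the only measured activating enzyme of the list, links fatty acids to CoA and had 80.0, 67.6 and 67.1, or -0.24 and -0.25.

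SREBF1, which encodes the SREBP of fatty acid synthesis, had 180 under DMSO, 171 under sorafenib and 180 under the sorafenib probe by its brightest probe (-0.08 and 0.00). A dimmer probe annotated to another transcript of SREBF1 had 50.0, 65.8 and 46.0, or 0.40 and -0.12, the widest gap between probes of 1 gene with sorafenib (0.47). MLXIPL was above background with DMSO only, at 37.2, so its direction was fixed by the detection limit. By its bounds MLXIPL was at least 1.09-fold lower with sorafenib and at least 1.10-fold lower with the sorafenib probe. Its other probe, not above background on any array, gave 0.21 and 0.26. The arrays measure transcripts and not the processed, active form of SREBP.

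Separate array probes of a gene read the same RNA and do not replicate the culture, but they show how far 1 probe can be relied on. Of the 29 genes, 9 had more than 1 probe above background, which gave 11 further probes. Of these 11 probes 9 lay below 0 with sorafenib and 9 did with the sorafenib probe, where 50.5% and 50% of all genes tested did. The medians of the 11 were -0.11 and -0.12. They lay on the same side of 0 as the brightest probe of their gene in 9 of 11 cases with sorafenib and in 9 of 11 with the sorafenib probe, and the median gap between them was 0.15 and 0.14. Between the compounds only 4 of 11 lay on the same side, with a median gap of 0.25 and the widest, 0.59, for SREBF1. SCD and FADS1 each had only 1 probe above background, so their values had no such check.

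**Figure D4:**
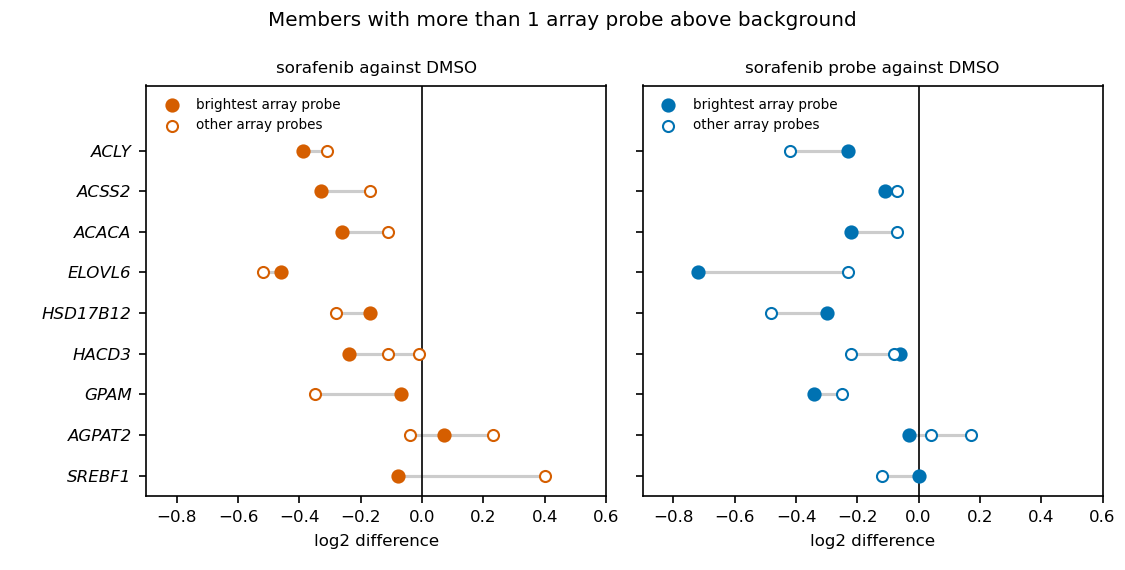
Log2 difference from DMSO (horizontal axis) of each array probe above background for the 9 members with more than 1, with sorafenib (left) and the sorafenib probe (right), 1 array each; filled circles are the brightest array probe of a gene and open circles the others. The probes of ACLY, ACSS2, ACACA, ELOVL6, HSD17B12, HACD3 and GPAM all lie below 0, and those of SREBF1 lie on both sides with sorafenib (-0.08 and 0.40).

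Between the compounds themselves the group differed little. With the sorafenib probe 18 of the 29 genes lay above sorafenib and 11 below, against 49.7% and 50.1% of all genes. Of the 18, ELOVL5 lay within 0.005 of 0, which leaves 17 above. None was 1.5-fold higher or lower, where 0.712% and 0.529% of all genes were, and none 2-fold (0.0192% and 0.0289%). At 1.3-fold 1 gene, ELOVL1, was higher and 0 lower, against 3.41% and 3.28%. The log2 differences of the 29 ran from -0.27 to 0.57 with a median of 0.04. The upper end was FADS3, which was above background on 1 array only. Of the members, ELOVL1 alone lay outside the middle 95% of genes of like intensity, at 0.40 where that range ended at 0.40. That is 1 of 29, no more than the share of all genes that the range leaves out by definition. The drug and its photoreactive, alkyne-bearing derivative were thus compared at matched dose and time in 1 pair of arrays, with no interval for any difference, and small differences do not show that they act alike.

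Neighbouring genes of lipid metabolism, drawn up as 7 lists, gave a mixed picture. Of 6 other measured genes of elongation and desaturation, 5 lay below 0 with each compound, against 50.5% and 50% of all genes tested. Their medians were -0.18 and -0.18. Among them CYB5B, a cytochrome b5 of the outer mitochondrial membrane, had 3195 under DMSO, 2261 under sorafenib and 2290 under the sorafenib probe. ELOVL2, an elongase of polyunsaturated chains, had 52.6, 36.5 and 38.5.
Other acyl-CoA synthetases and thioesterases lay mostly above 0, 10 of 14 with sorafenib and 11 of 14 under the sorafenib probe, against 49.4% and 49.9% of all genes. The medians of this list were 0.24 and 0.20. SLC27A3, a member of the fatty acid transport protein family, was not above background with DMSO and was at least 1.71-fold higher with sorafenib and at least 1.90-fold higher with the sorafenib probe. ACOT8, a peroxisomal thioesterase, was likewise not above background with DMSO and was at least 1.41-fold and at least 1.36-fold higher. Both genes passed the detection limit only through the arrays of the compounds, so their direction was fixed by that limit. A further gene of the list, at 34.6 with DMSO, was counted in the same way. The mitochondrial thioesterase gene ACOT2 had 112, 165 and 152.
Over 24 other genes of glycerolipid and phospholipid synthesis the medians were -0.07 and -0.06. LPCAT1, which reacylates lysophosphatidylcholine, was 1.67-fold lower with sorafenib and 1.32-fold lower with the sorafenib probe, while CHKB, a choline kinase, was 1.25-fold and 1.58-fold higher. Mitochondrial fatty acid synthesis, a separate pathway that feeds lipoic acid, had medians of 0.22 and 0.16 over 6 genes. With each compound 4 of the 6 lay above 0 and 2 below, where 49.4% and 49.9% of all genes lay above. Log2 differences were 0.21 and 0.54 for OXSM, its ketoacyl synthase, and 0.43 and 0.24 for LIAS, the lipoyl synthase.
The 18 other regulators had medians of -0.17 and -0.03. INSIG1, which holds SREBP in the endoplasmic reticulum and is itself a target of SREBP, had 273 under DMSO, 182 under sorafenib and 177 under the sorafenib probe (log2 differences of -0.58 and -0.62), and was 1.54-fold lower with the sorafenib probe. MID1IP1, a partner of acetyl-CoA carboxylase, had 153, 233 and 210 and lay above 0 (0.60 and 0.45). SREBF2, which encodes the SREBP of cholesterol synthesis, was above background with the sorafenib probe only. Lipid droplet genes had medians of 0.14 and 0.10 over 10 genes, with 1463, 2045 and 1975 for the coat protein gene PLIN3. Lower than with DMSO were ABHD5, an activator of triglyceride lipase, with 72.8, 61.2 and 51.4, and the coat protein gene PLIN2, with 364, 304 and 310. NADPH-supplying enzymes had medians of 0.06 and 0.05 over 10 genes, with 231, 336 and 344 for PGLS of the pentose phosphate pathway. NNT, the mitochondrial transhydrogenase, lay the other way with 71.7, 53.1 and 51.9 (log2 differences of -0.43 and -0.47).

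**Figure D5:**
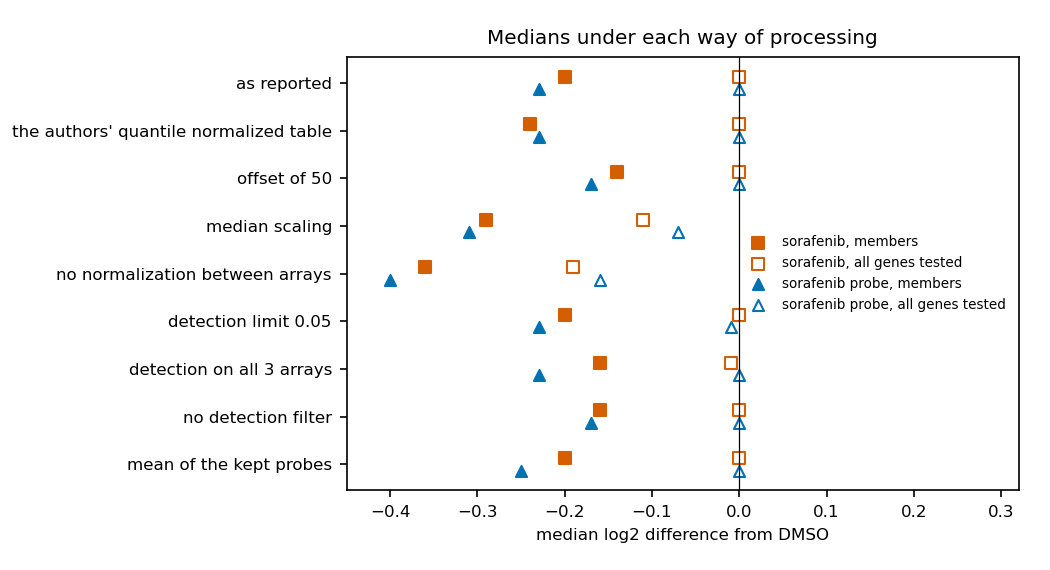
Median log2 difference from DMSO (horizontal axis) of the measured members (filled) and of all genes tested (open) for sorafenib (squares) and the sorafenib probe (triangles), 1 array each, under 9 ways of processing (rows). The members lie below all genes in every row, by 0.20 with sorafenib and 0.23 with the sorafenib probe as reported.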

How the data were processed

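Illumina probe intensities came as a pair of tables. One, called not normalized by the authors, holds quantile normalized intensities with a floor of 1 (98.2% of the sorted values above the floor were equal on all 3 arrays) beside the deposited detection p-values. The other deposited table holds intensities after background subtraction only and was the starting point here. The sources used here do not give the scanner software. Background was modelled by normexp from the detection p-values (offset 16), followed by quantile normalization on the log2 scale (limma 3.58.1, R 4.3.3). Tables were summarised with Python 3.11.15, numpy 2.4.6 and pandas 2.3.3. Differences of dim genes are understated because of the offset. Probes were named from the platform annotation (30113 with 1 symbol, 17202 not listed), updated through RefSeq identifiers. Steps were tested on simulated data. Members and lists were chosen with earlier results of these data known. All members were named, and up to 3 genes of each neighbouring list, those with the largest mean absolute difference from DMSO. Differences were counted at 1.5-fold. The alternatives were the authors' quantile normalized intensities, an offset of 50, median scaling, no normalization between arrays, other detection rules, the mean of a gene's probes, and 1.3-fold and 2-fold. No protein sequences were used here.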

Additional observations from a re-analysis of the deposited data

Results flagged for a closer look

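ELOVL1 lay below DMSO with sorafenib (log2 difference -0.14) and above it with the sorafenib probe (0.26), a log2 difference between the compounds of 0.40, where the middle 95% of 3465 genes of like intensity ran from -0.40 to 0.40. It was above background on all 3 arrays by a single probe, and the difference was not tested, since each group was 1 array. Across the 9 ways of processing it ranged from 0.33 to 0.45, though the detection rules and the mean of probes could not move it.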

How the results depend on the processing

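No paired analysis was possible because each group was 1 array. SCD ranged from -1.02 to -0.80 with sorafenib and from -0.99 to -0.83 under the sorafenib probe over the ways of processing, and FADS1 from -1.01 to -0.77 and from -0.90 to -0.71, so both stayed past 1.5-fold under each of the 9 ways. Without normalization between arrays the medians of the members were -0.36 and -0.40, where all genes had -0.19 and -0.16, and 7 members were 1.5-fold lower with sorafenib (6.56% of all genes) and 4 with the sorafenib probe (5.66%). With median scaling, where all genes had -0.11 and -0.07, 6 were lower with sorafenib (3.84% of all genes) and 4 under the sorafenib probe (3.31%). With the authors' quantile normalized values MLYCD and FADS2 were added, which made 4 lower with sorafenib (4.61% of all genes) and 5 under the sorafenib probe (4.72%). Counted at 2-fold, 0 members were lower with either compound, and at 1.3-fold 8 were lower with sorafenib, 6 were lower and 1 was higher with the sorafenib probe, and 1 was higher with the sorafenib probe than with sorafenib. Leaving out a replicate was not possible either. Under the alternatives, 670 of 681 values of single genes moved by less than the SD of that difference over all genes of like intensity. The other 11 moved by more. Many could not move, since the detection rules, with 87, 72 and 87 of the values, leave a gene's intensities as they were. The mean of a gene's probes changes only genes with several. Of the values past 1.5-fold 0 changed sign. Smaller ones did, such as SREBF1 (-0.30 to 0.16) and AGPAT2 (-0.13 to 0.09) with sorafenib. Dim genes (MLYCD, FADS2, FADS3, GPAT4 and MLXIPL) give bounds wherever 1 of the arrays compared was not above background, and with 1 array per group the effect of a compound and a difference of the single DMSO culture cannot be told apart.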
